A study of Rattus norvegicus with 66 samples.

Results

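Immediate early genes are transcribed within minutes of a stimulus without new protein synthesis, and in neurons their messenger RNAs rise after synaptic activity and calcium entry. Most of them encode transcription factors that switch on later genes, while a few encode proteins that act directly at the synapse. In the hippocampus they are widely used to mark recently active neurons, and several of them also respond to growth factors, stress and injury in other cell types. Here 10 such genes were followed in the dorsal hippocampus of neonatal rats. They were Fos, Fosb and Junb of the AP-1 family, the zinc finger genes Egr1, Egr2 and Egr3, the orphan nuclear receptor gene Nr4a1, the neuron-specific transcription factor gene Npas4, the nuclear regulator gene Ier2 and Arc, which encodes a dendritic protein of glutamate receptor trafficking. They were taken from the count tables by gene symbol, and each symbol matched 1 of the 37777 rows.

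The study asked whether developmental exposure to endocrine active chemicals alters hippocampal gene expression. RNA of the dorsal hippocampus, with some of the laterally adjacent neocortex, was sequenced on postnatal day (PND) 6 from 64 Long Evans pups of 44 litters (41 males and 23 females) in 66 libraries. The dams received Aroclor 1254 (Aro), a mixture of polychlorinated biphenyls, bisphenol A (BPA), a plastic component, or chlorpyrifos (CPF), an organophosphate insecticide. Aro and BPA were fed in chow and CPF was injected subcutaneously. Male pups were feeding controls (CONF, n = 4), injection controls (CONSC, n = 5), Aro0.5 (0.5 mg/kg, n = 4), Aro5 (5 mg/kg, n = 6), BPA0.5 (0.5 mg/kg, n = 4), BPA5 (5 mg/kg, n = 7), CPF1 (1 mg/kg, n = 4) and CPF3 (3 mg/kg, n = 7). Of the females, 5 each were CONF, CONSC and Aro5 pups, and 4 each were BPA5 and CPF3 pups. Dams were fed from before mating until PND 6 and injected during pregnancy and again after birth, so that the pups, controls included, were dosed only through the dam. For the vehicle injected in CONSC, the labels give saline and the methods of the study DMSO. CONF and CONSC pups of a sex were combined as controls. Because whole tissue was sequenced, fewer cells of a type and less RNA per cell cannot be told apart.

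Total counts per library ranged from 10644138 to 86206550, and dissection times from 9.45 to 15.45 (hours and minutes, lights on at 07.00). Library names are spelled in 2 ways, called forms A and B here, and what the spelling marks is not stated in the sources used here. Of the 10 male control libraries 9 have form A, as do the 12 low-dose male libraries, whereas the 20 high-dose male libraries have form B. The 11 libraries of control females comprise 5 of form A and 6 of form B. Names of the 13 libraries of high-dose females show neither. The hippocampal genes Prox1 and Neurod6 were present in all pups. All 6 striatal markers were also detected in all pups, with a summed level of 75.8 to 1109 CPM (counts per 1000000 counts of the library), so that the tissue of some pups held more than hippocampus. Levels below are CPM, which is not corrected for gene length, and are compared between pups of 1 gene, never between genes.

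RefSeq promoter sequences of the rat build GRCr8 were found for 7 of the 10 genes, and Fos, Egr3 and Arc are only named. The 4 stretches below are shown because they hold letters by which immediate early genes are known to be controlled, and they were chosen for these letters, not for how the genes moved. Each runs from 115 to 46 bases before the start of the gene, on the coding strand. Capitals mark serum response elements, the cyclic AMP response element TGACGTCA, and its shorter form TGACG, read as CGTCA on the other strand.
Egr1, chr18:26736963-26737032, plus strand: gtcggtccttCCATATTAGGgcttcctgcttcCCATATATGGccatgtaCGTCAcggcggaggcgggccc
Egr2, chr20:21054487-21054556, minus strand: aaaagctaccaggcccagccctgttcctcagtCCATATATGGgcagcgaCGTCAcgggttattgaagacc
Nr4a1, chr7:134260023-134260092, plus strand: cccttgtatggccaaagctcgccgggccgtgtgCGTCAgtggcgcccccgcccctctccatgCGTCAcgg
Ier2, chr19:40399258-40399327, plus strand: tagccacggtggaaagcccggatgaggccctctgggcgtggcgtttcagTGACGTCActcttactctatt
In the 250 bases before the start, searched on both strands, the serum response element occurred at 2 places in Egr1 and at 1 in Egr2. In both genes the same letters CCATATATGG lay 83 to 74 bases before the start and CGTCA 66 to 62 bases before it. Nr4a1 held the shorter form at 4 places and Junb at 1, and the full TGACGTCA occurred in Ier2 alone of the 7, where the 2 shorter forms counted lie inside it. Npas4 and Fosb held none of the 3 motifs, although Npas4 was the gene closest to Egr1 and Egr2 across pups. Of 33469 promoters of the same length, 501 held a serum response element, 531 (1.59%) the full cyclic AMP response element and 6097 (18.2%) its shorter form, which is part of the full one. These matches are a description of letters, and binding was not measured.

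Across the 13 groups the 10 genes were detected in all pups at low to moderate counts, from 3 to 103 counts per pup for Fosb up to 87 to 1597 for Nr4a1. Among the AP-1 genes, mean Fos levels ran from 2.19 ± 0.474 CPM in Aro5 males (SD, n = 6) to 4.24 ± 2.48 in CONSC females (SD, n = 5). Fosb ranged from 0.635 ± 0.228 CPM in BPA5 males (SD, n = 7) to 2.36 ± 2.97 in CPF1 males (SD, n = 4), where a single pup set the mean. Junb had the widest spread of group means relative to the spread within groups, with all 5 female groups above all 8 male groups, from 1.94 ± 0.513 CPM in BPA0.5 males (SD, n = 4) to 9.12 ± 2.06 in CONSC females (SD, n = 5).

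**Figure D1:**
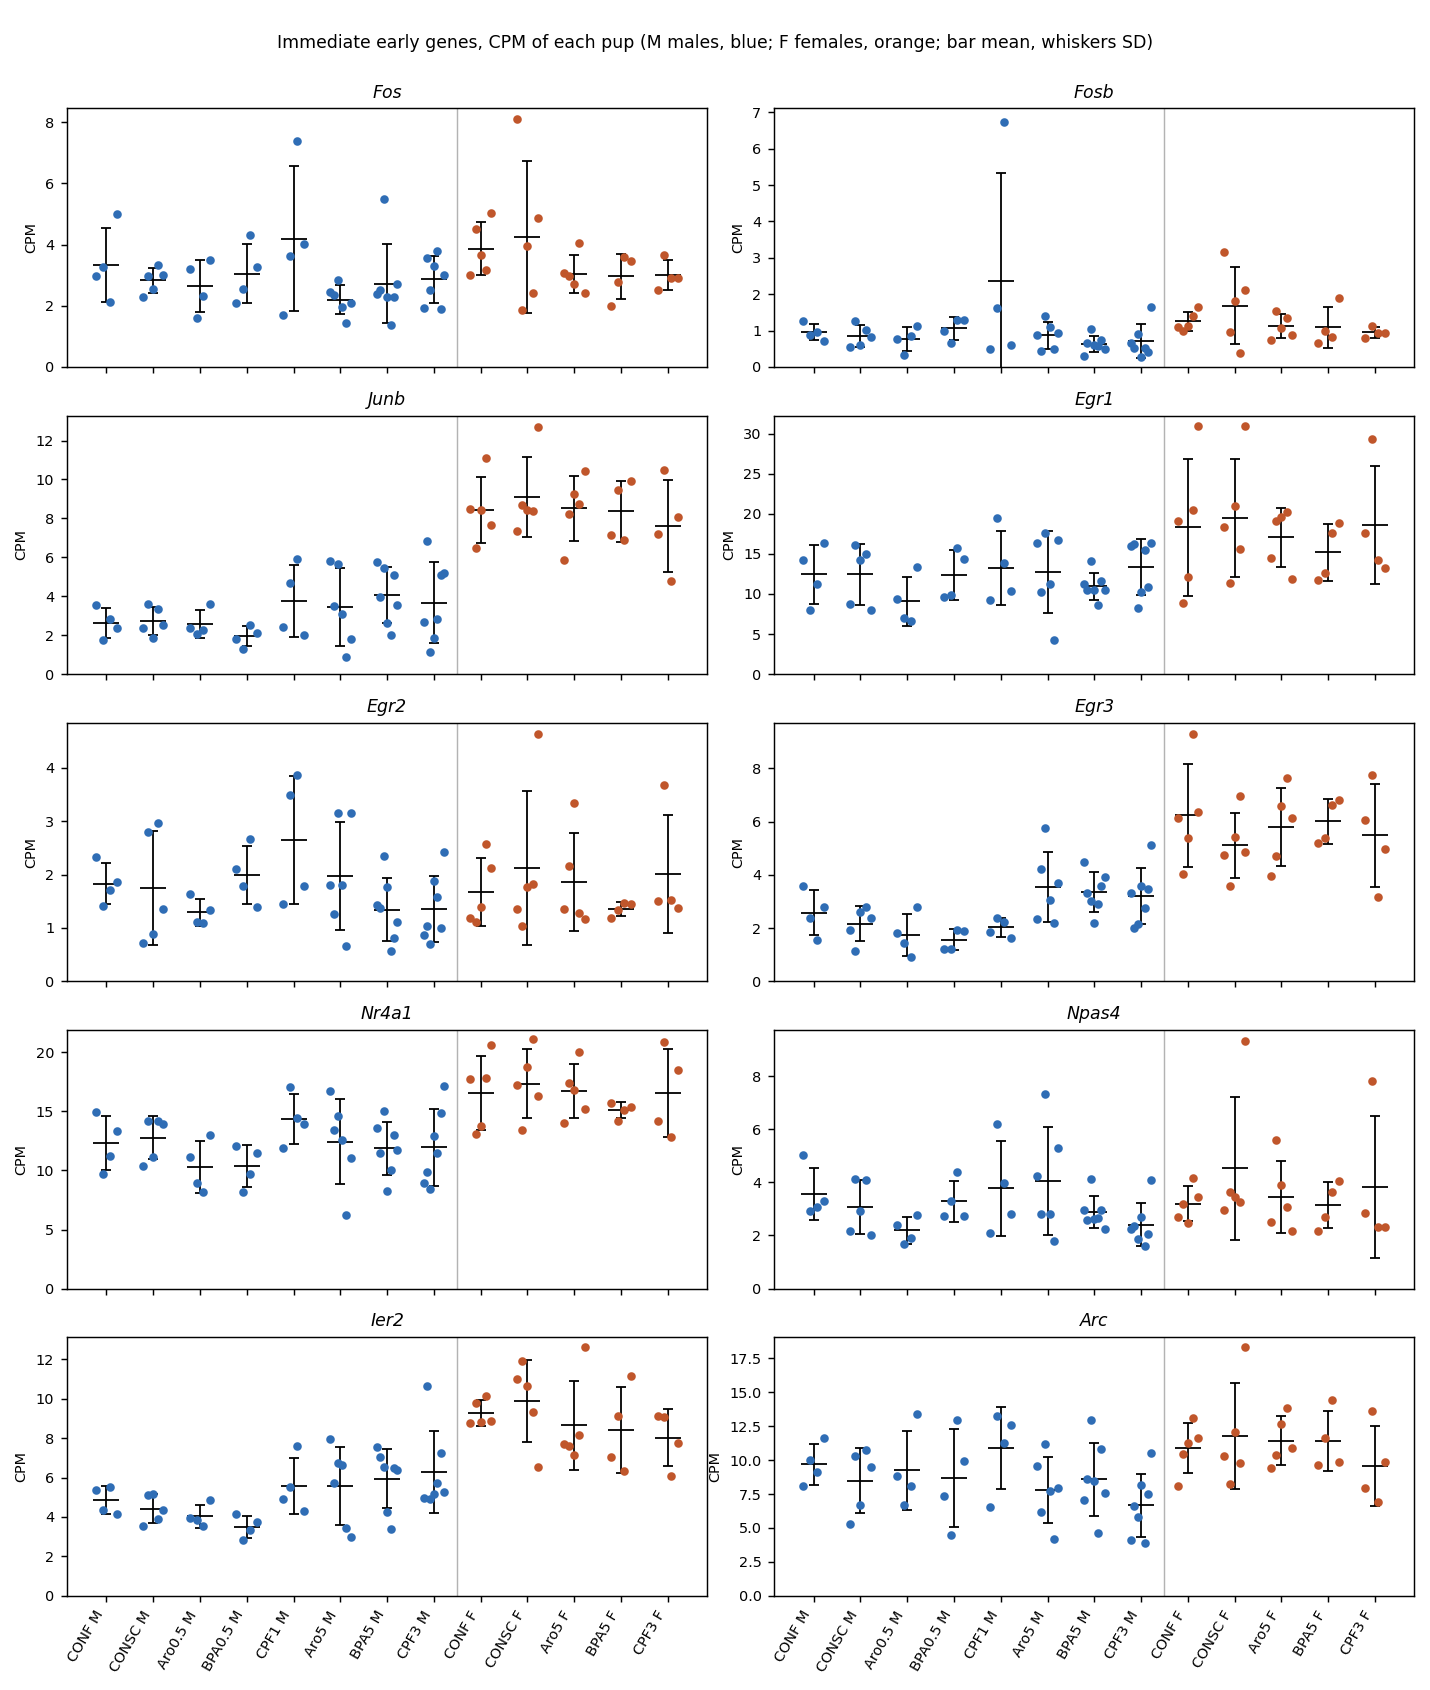
Levels of the 10 immediate early genes in CPM (vertical axis, linear, from 0, a scale for each gene) for every pup in the 13 groups (horizontal axis); points are pups and bars the group mean with SD, the whisker of Fosb in CPF1 being drawn only down to 0. For Junb, Egr3, Ier2 and, by less, Egr1 and Nr4a1 the 5 female groups lie above the 8 male groups in their means, while the groups of Fos, Egr2 and Npas4 overlap throughout.

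Of the zinc finger genes, Egr1 lay between 9.09 ± 3.09 CPM in Aro0.5 males (SD, n = 4) and 19.4 ± 7.33 in CONSC females (SD, n = 5). Egr2 was lowest in Aro0.5 males at 1.29 ± 0.252 CPM (SD, n = 4) and highest in CPF1 males at 2.65 ± 1.20 (SD, n = 4), and Egr3 ran from 1.57 ± 0.399 CPM in BPA0.5 males (SD, n = 4) to 6.24 ± 1.94 in CONF females (SD, n = 5). The nuclear receptor gene Nr4a1 was lowest in Aro0.5 males at 10.3 ± 2.19 CPM and highest in CONSC females at 17.4 ± 2.89, and Npas4 had the same lowest and highest groups at 2.19 ± 0.494 and 4.53 ± 2.70 CPM (SD, n = 4 and 5). Arc ran from 6.66 ± 2.32 CPM in CPF3 males (SD, n = 7) to 11.8 ± 3.93 in CONSC females (SD, n = 5), and Ier2 from 3.51 ± 0.559 in BPA0.5 males (SD, n = 4) to 9.89 ± 2.07 in CONSC females (SD, n = 5). In the order of group means, every pair of neighbouring groups of each gene overlapped within mean ± SD, the step from the highest male to the lowest female group of Junb, Egr3 and Ier2 included.

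Junb, which encodes an AP-1 partner, was several times higher in control females than in control males. Male CONF pups had 1.77, 2.35, 2.84 and 3.54 CPM, and male CONSC pups 1.85, 2.38, 2.55, 3.34 and 3.59. Female CONF pups had 6.50, 7.66, 8.41, 8.50 and 11.1 CPM, and female CONSC pups 7.38, 8.37, 8.44, 8.69 and 12.7. The lowest female was thus well above the highest male. The mean was 8.78 ± 1.82 CPM in 10 females and 2.69 ± 0.685 in 9 males, a ratio of 3.26, and the quasi-likelihood test of edgeR, with p adjusted by Benjamini-Hochberg over all genes tested, gave a log2 difference of 1.73 ± 0.15 (SE; adjusted p = 7.06e-09).

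Ier2, whose product is a short nuclear protein induced early by growth factors and activity, showed the same separation. Male CONF pups had 4.14, 4.33, 5.38 and 5.52 CPM and male CONSC pups 3.55, 3.90, 4.37, 5.11 and 5.18. Female CONF pups had 8.78, 8.84, 8.85, 9.77 and 10.2 CPM and female CONSC pups 6.56, 9.35, 10.6, 11.0 and 11.9. No female overlapped a male, and means of 9.58 ± 1.48 in females and 4.61 ± 0.707 in males gave a log2 difference of 1.09 ± 0.11 (SE; edgeR, adjusted p = 8.64e-08).

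Egr3, a zinc finger factor of neurons and lymphocytes, separated the sexes only narrowly. Male CONF pups had 1.54, 2.39, 2.78 and 3.59 CPM and male CONSC pups 1.16, 1.94, 2.37, 2.62 and 2.78. Female CONF pups had 4.02, 5.40, 6.13, 6.36 and 9.30 CPM and female CONSC pups 3.60, 4.75, 4.85, 5.42 and 6.95. The highest male (3.595) and the lowest female (3.598) nearly met, while the means were 2.35 ± 0.729 CPM in males and 5.68 ± 1.64 in females, a log2 difference of 1.29 ± 0.19 (SE; edgeR, adjusted p = 1.78e-05).

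Smaller differences of the same direction passed the test for Nr4a1, Egr1 and Fosb. Nr4a1 had 12.6 ± 1.94 CPM in control males and 17.0 ± 2.87 in control females, with 7 of 10 females above all males (log2 difference 0.47 ± 0.11, edgeR adjusted p = 0.00192). Egr1 had 12.4 ± 3.49 and 18.9 ± 7.51 CPM, with 6 of 10 females above all males (0.64 ± 0.21, edgeR adjusted p = 0.0255). Fosb, a slower AP-1 gene whose stable splice form accumulates in neurons, had 0.899 ± 0.261 and 1.47 ± 0.769 CPM (0.75 ± 0.28, edgeR adjusted p = 0.0429). The calls of Egr1 and Fosb were lost under several alternatives, the litter block among them, where their adjusted p values were 0.0767 and 0.128 (limma-voom). That fit changed the tool along with the block, and its estimated correlation within litters was -0.17, so the loss cannot be put down to litter alone.

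The other 4 genes did not pass. Arc had 9.02 ± 2.03 CPM in males and 11.3 ± 2.93 in females, and Fos 3.06 ± 0.840 and 4.06 ± 1.76, with adjusted p = 0.0556 and 0.112 by edgeR. Npas4, which is induced by calcium entry into neurons, had 3.29 ± 0.975 and 3.86 ± 1.98 CPM, and Egr2 1.78 ± 0.789 and 1.90 ± 1.08 (edgeR adjusted p = 0.401 and 0.746). In all, 6 of the 10 genes were called, each of them higher in females, where 30.9% of the 15763 genes tested were called and 17.8% were called higher in females. The median log2 difference of the 10 was 0.55, all 10 were positive, and the median over all genes tested was -0.02. Levels without overlap, all females above all males, were found for 3 of the 10 genes and for 4.57% of the genes tested.

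**Figure D2:**
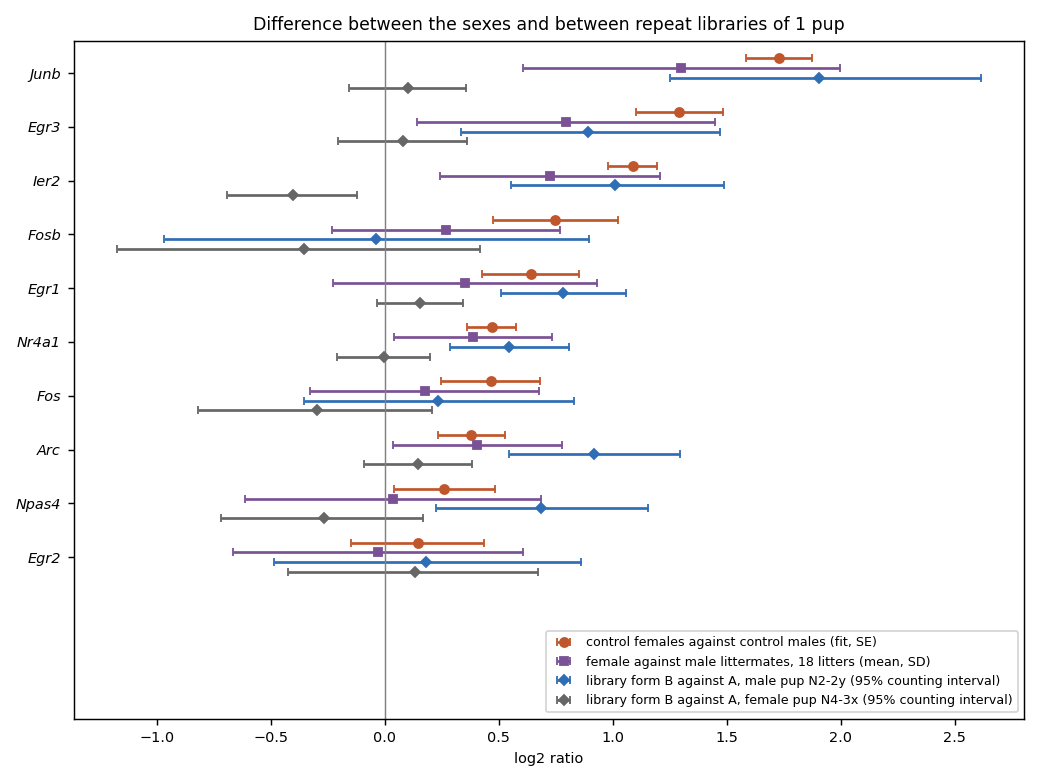
Log2 differences of the 10 genes, with the points and error bars of each series named in the legend: control females against control males (edgeR, SE), female against male littermates, and the form B against the form A library of pups N2-2y and N4-3x with 95% exact counting intervals. Junb, Ier2 and Egr3 lie highest in females against males, and the same 3 genes, with Arc, are highest in the form B library of the male pup N2-2y.

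Littermates of both sexes, a comparison added after the data had been seen, had Junb, Egr3 and Ier2 as the 3 largest differences. Pups of the 7 control litters among them were also in the fit of control females against control males, so that the comparisons share pups. In the high-dose litters the brothers' libraries had form B, and the sisters' names showed neither form. In 18 litters Junb was higher in the sister in 18, by a mean log2 ratio of 1.30 ± 0.70 (SD; exact sign-flip permutation test, two-sided p = 7.63e-06, the smallest possible). Egr3 was higher in the sister in 17 litters (0.79 ± 0.65, exact p = 2.29e-05), and Ier2 in 17 (0.72 ± 0.48, exact p = 3.05e-05). Arc and Nr4a1 were each higher in 16 litters, by 0.41 ± 0.37 and 0.39 ± 0.35 (exact p = 0.000191 and 0.000107). Egr1 and Fosb were higher in 13 litters each (exact p = 0.0172 and 0.0368), while Fos, Npas4 and Egr2 were higher in 11, 9 and 8 of 18 (exact p = 0.159, 0.827 and 0.858). These 10 p values are unadjusted. Within the 7 control litters, Junb, Egr3, Ier2 and Arc were higher in the sister in 7 of 7 (exact p = 0.0156 each, the smallest that 7 litters allow).

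A male pup sequenced in both forms showed how far these same genes can move between libraries. For CONF N2-2y, Junb had 24 counts (1.46 CPM) in the form A and 97 (5.47 CPM) in the form B library, a ratio of 3.75 (95% exact counting interval 2.38 to 6.14). Ier2 went from 58 to 126 counts (3.52 to 7.10 CPM), a ratio of 2.02 (1.47 to 2.80), and Egr3 from 41 to 82 counts (2.49 to 4.62 CPM), a ratio of 1.86 (1.26 to 2.77). In the form B library Junb lay below the lowest control female, whereas Egr3 and Ier2 lay inside the female range.

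Arc, Egr1, Npas4 and Nr4a1 of the same pup were also higher in form B, with ratios of 1.89, 1.72, 1.61 and 1.46 whose intervals lay above 1. Fos, Egr2 and Fosb had ratios of 1.18, 1.13 and 0.972 with intervals that include 1. In the female pup CONF N4-3x, whose libraries carry different times of dissection, the 10 ratios ran from 0.756 to 1.11, and only that of Ier2, 0.756 (0.620 to 0.920), excluded 1. These intervals cover counting error only, and each pup is 1 case.

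Within form A alone, with 9 male and 5 female control libraries, Junb (log2 difference 1.93, edgeR adjusted p = 6.19e-06), Ier2 (1.21, adjusted p = 3.31e-05) and Egr3 (1.26, adjusted p = 0.00101) were still called, as were Fosb and Nr4a1 (edgeR adjusted p = 0.0342 and 0.0427). The 11 female control libraries come from 10 pups, since CONF N4-3x gave 1 of each form, and their fit took them as independent. In it form B against form A gave 0 of 10 genes called by edgeR, where 1.43% of the genes tested were called. An unadjusted p under 0.05 was found for 1 of the 10 (Nr4a1, 0.27 ± 0.12, unadjusted p = 0.0446) and for 3092 of all genes. Mean Junb was 9.22 ± 2.54 CPM in 5 female libraries of form A and 8.83 ± 1.40 in 6 of form B, with CONF N4-3x in both. The study states that the RNA-seq of female hippocampus was run again, but not which libraries belong to which run, nor whether any were prepared together with those of males, so that sex and a library set that the names do not show cannot be told apart.

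Markers of 1 other cell type also separated the sexes. Summed endothelial markers were 74.9 to 95.2 CPM in control males and 97.6 to 122 in control females, without overlap, and blood markers 208 to 431 and 143 to 385 CPM. The part of these in the differences of Junb, Ier2 and Egr3 was not tested.

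The ratio of female to male means was smaller among high-dose than among control pups for all of the 10 genes except Arc and Egr2. It was 1.26 in controls and 1.41 at high dose for Arc, and 1.07 and 1.14 for Egr2. The interaction of sex with each treatment was called for 0 of the 10 genes. Junb had 4.77 to 10.5 CPM in 13 high-dose females and 0.889 to 6.86 in 20 high-dose males, a ratio of means of 2.18, with 11 of 13 females above all males. Egr3 and Ier2 overlapped more, with ratios of 1.72 and 1.41, and 7 and 2 of 13 females above all males. The high-dose males, all of form B, included pups with higher Junb, Egr3 and Ier2 than any control male, as the treatment comparisons show.

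In high-dose males no immediate early gene was called. Junb was 0.889, 3.31 and 5.83 CPM (lowest, median and highest) in Aro5, 2.03, 3.97 and 5.79 in BPA5 and 1.15, 2.84 and 6.86 in CPF3, against 1.77 to 3.59 in the 9 controls. Each high-dose group thus reached above the controls and, in Aro5 and CPF3, also below them. The log2 differences from controls were 0.37 ± 0.34, 0.60 ± 0.33 and 0.47 ± 0.33 (SE; edgeR, adjusted p = 0.723, 0.574 and 0.556).

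Egr3 gave the lowest unadjusted p of the 10 genes in Aro5 and BPA5. It was 2.21, 3.38 and 5.74 CPM in Aro5, 2.18, 3.30 and 4.49 in BPA5 and 2.01, 3.32 and 5.14 in CPF3 (lowest, median and highest), against 1.16, 2.39 and 3.595 in controls. The log2 differences were 0.59 ± 0.23 (unadjusted p = 0.014, edgeR adjusted p = 0.292), 0.50 ± 0.22 (0.0317 and 0.523) and 0.44 ± 0.22 (0.0562 and 0.409). Ier2 differed by 0.29 ± 0.20, 0.38 ± 0.19 and 0.45 ± 0.20, and in CPF3 its unadjusted p was 0.0273 (edgeR adjusted p = 0.363).

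Arc, the synaptic gene, lay at or below the controls in these groups, by log2 differences of -0.19 ± 0.22, -0.05 ± 0.21 and -0.42 ± 0.22, and Fos by -0.46 ± 0.23, -0.12 ± 0.21 and -0.08 ± 0.21 (SE), none of them called. Tissue markers differed in these groups too, with a median striatal sum of 135 CPM in CPF3 males (120 to 567), 221 in BPA5 (75.8 to 340) and 368 in Aro5 (101 to 766) against 343 in controls. Neocortical sums were 617 to 878 CPM in Aro5 males against 388 to 727 in controls. Their part in the differences of these genes was not tested. Of the 10 genes 0 were called in Aro5, BPA5 and CPF3 males, against 0.195%, 0.189% and 0.159% of the 16393 genes tested. In each group 1 of the 10 was at an unadjusted p under 0.05, as were 1929, 1492 and 2064 of all genes. The median log2 difference of the 10 was 0.09, -0.10 and -0.07. The 3 comparisons share their controls, and with 20 high-dose libraries of form B and 9 of 10 control libraries of form A, dose and form cannot be told apart in males. Junb, Egr3 and Ier2, higher in the form B library of N2-2y, were the 3 genes with positive differences in all 3 high-dose groups. Arc and Nr4a1, also higher in that library, had negative differences in all 3 groups, and Egr1 and Npas4, higher there too, had differences of both signs. With form as a covariate the libraries were the units, and CONF N2-2y entered as 2 controls, 1 of each form. Its form B library was the only form B control, so that each estimate compares the treated pups with that 1 library. The estimates of all 10 genes were negative in each group (medians -0.48, -0.50 and -0.54), and such a fit cannot separate dose from form.

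**Figure D3:**
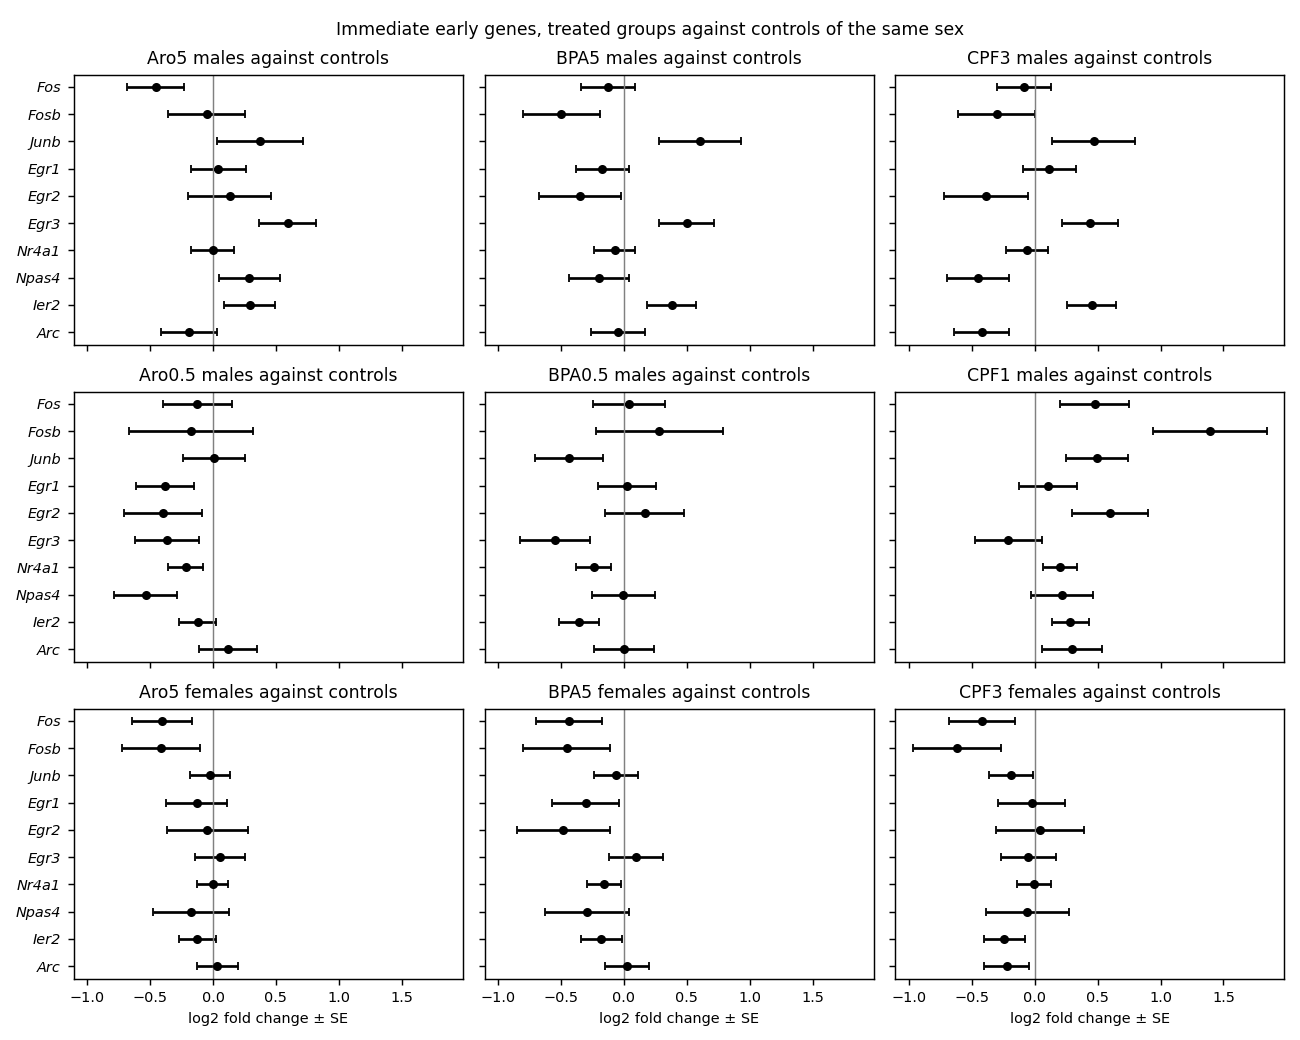
Log2 differences from controls of the same sex with SE (edgeR) for the 10 genes in the 6 treated male and 3 treated female groups. No difference was called, and in the high-dose males Junb, Egr3 and Ier2 lie between 0.29 and 0.60.

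At low doses, where treated and control libraries mostly share form A, 0 of 10 genes were called in Aro0.5, BPA0.5 and CPF1 males, against 0.124%, 0.0434% and 0% of the 16139 genes tested. In each group 1 of the 10 was at an unadjusted p under 0.05, as were 2988, 1384 and 322 of all genes. In Aro0.5 males Npas4 had a log2 difference of -0.53 ± 0.25 (SE, unadjusted p = 0.0442, edgeR adjusted p = 0.259), with levels of 2.19 ± 0.494 CPM (SD, n = 4) against 3.29 ± 0.975 in controls. Summed striatal markers, which moved with Npas4 across pups, had a median of 157 CPM in Aro0.5 males (90.5 to 278) and 343 in control males (102 to 531). Summed thalamic markers, whose r with Npas4 was -0.67, had a median of 1282 CPM in Aro0.5 males (848 to 1446) and 747 in control males (556 to 1443). The part of either sum in this difference was not tested. In BPA0.5 males Ier2 had a log2 difference of -0.35 ± 0.16 (unadjusted p = 0.0349, edgeR adjusted p = 0.544). Egr3 was also below controls in estimate in all 3 low-dose groups, by -0.36 ± 0.26, -0.55 ± 0.28 and -0.21 ± 0.27, opposite in sign to the high doses and not called in any.

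Fosb in CPF1 males had a log2 difference of 1.39 ± 0.45 (unadjusted p = 0.00547, edgeR adjusted p = 0.997), and it rested on 1 pup. CPF1 60-6y had 6.74 CPM, and without it the other 3 CPF1 pups had 0.897 ± 0.622 CPM, with a log2 difference of 0.07 (unadjusted p = 0.846). In the CPF1 comparison 9 of the 10 genes had a positive difference, with a median of 0.29, which was 0.15 without CPF1 60-6y and 0.43 without CPF1 16-7y. No gene of any kind was called by edgeR, while 322 had an unadjusted p under 0.05.

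In females 0 of 10 genes were called in Aro5, BPA5 and CPF3, where 0%, 0% and 0% of the 16992 genes tested were called by edgeR, and none of the 10 had an unadjusted p under 0.05, against 548, 694 and 1493 of all genes. Names of the 13 high-dose libraries show neither form, whereas the 11 control libraries have form A or B. Dose and a possible library set can thus not be told apart in females either. Junb was 5.89, 8.76 and 10.4 CPM (lowest, median and highest) in Aro5, 6.90, 8.30 and 9.94 in BPA5 and 4.77, 7.62 and 10.5 in CPF3, against 6.50, 8.42 and 12.7 in 10 controls. Its log2 differences were -0.03 ± 0.16, -0.06 ± 0.17 and -0.19 ± 0.18 (SE). Fos and Fosb lay lower than controls in estimate in each group, Fos by -0.40 ± 0.24, -0.44 ± 0.26 and -0.42 ± 0.26 and Fosb by -0.41 ± 0.31, -0.45 ± 0.35 and -0.62 ± 0.35, and these comparisons share their controls.

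The route of the control made no called difference. CONSC against CONF gave 0 of 10 genes in males, where 0.013% of 15387 genes were called, and 0 of 10 in females, where 0% of 16618 were, and none of the 10 had an unadjusted p under 0.05 in either sex (152 and 713 of all genes). The estimates for Npas4 ran in opposite directions, -0.28 ± 0.25 in males and 0.50 ± 0.30 in females (SE), but the female value rested on pup CONSC 9-1x and was 0.04 ± 0.17 without it.

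A test of the difference between the sexes in the response to treatment called 0 of 10 genes for Aro5, BPA5 and CPF3, against 0.0984%, 0.0405% and 0.0463% of 17282 genes. Of the 10, 0, 1 and 1 had an unadjusted p under 0.05, against 1541, 482 and 967 of all genes. The lowest adjusted p was that of Egr3 for Aro5 (-0.56 ± 0.32, unadjusted p = 0.0844, edgeR adjusted p = 0.634). For Ier2 the interaction was -0.56 ± 0.27 in BPA5 (unadjusted p = 0.0435, edgeR adjusted p = 1.00) and -0.70 ± 0.27 in CPF3 (unadjusted p = 0.0124, edgeR adjusted p = 0.868). Junb and Egr3 also had negative estimates for all 3 chemicals, between -0.66 and -0.40. These interactions include the male comparisons, in which dose and form of library name cannot be told apart. They also include the female ones, in which high-dose names show neither form, and both limits hold here too.

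Because immediate early genes respond to what happened shortly before tissue collection, levels were set against the time of dissection. With each group centred on its mean, Arc was the only one of the 10 genes whose log2 CPM correlated with time over 64 pups (r = 0.32, permutation p = 0.0284; rho = 0.40, permutation p = 0.0041). Without the 2 pups farthest from the median time, Aro5 108-1y and BPA5 80-1y, dissected at 15.45 and 13.20, its r was 0.30 (permutation p = 0.0333). The estimate was 0.12 ± 0.05 log2 units per hour (SE, unadjusted p = 0.0202, edgeR adjusted p = 0.205).

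Within sets of pups the relation of Arc to time had the same sign. It was r = 0.28 in 41 males (permutation p = 0.118), 0.43 in 23 females (permutation p = 0.0401), 0.34 in the pups of form A (permutation p = 0.190) and 0.31 in the males of form B (permutation p = 0.215). Leaving out 3 pups that stood apart in at least 2 of the genes, an alternative added after the data had been seen, gave 0.27 (permutation p = 0.0775). The other 9 genes had r between -0.13 and 0.18, with permutation p from 0.311 to 0.875, all 10 unadjusted. In edgeR 0 of 10 genes were called for time, as were 0% of 17367 genes, with 1 of the 10 and 3121 of all genes at an unadjusted p under 0.05, and DESeq2 called 117 genes in all.

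**Figure D4:**
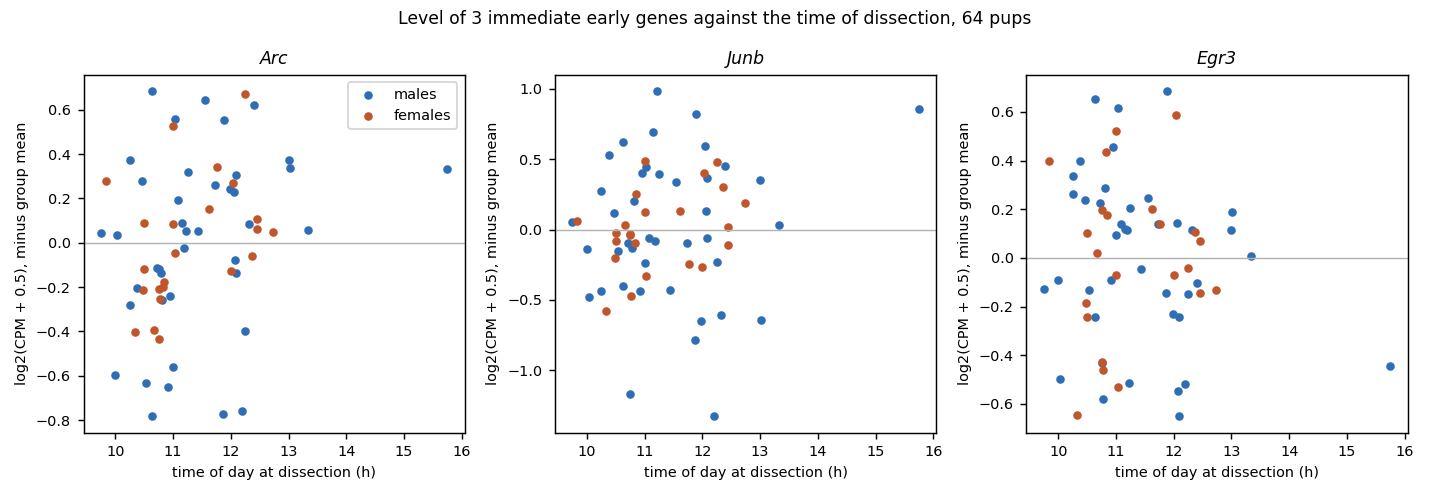
Level of Arc, Junb and Egr3 as log2(CPM + 0.5) centred on the group mean (vertical axis) against the time of dissection in hours (horizontal axis) for 64 pups, coloured by sex. Time is drawn uncentred, whereas the r of Arc, 0.32, was computed with time also centred on the group mean. The single pup at the far right is Aro5 108-1y, dissected at 15.45.

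Across the 64 pups, centred on their group means, the 10 genes rose and fell together. All 45 pairs had a positive r, with a median of 0.46 and a range of 0.02 to 0.79, and 36 of 45 had a permutation p under 0.05, unadjusted. Npas4 and Egr2 were closest (r = 0.79, rho = 0.72), followed by Npas4 and Egr1 (r = 0.74, rho = 0.74) and Egr1 and Egr2 (r = 0.69, rho = 0.66), each with permutation p = 1e-05, the smallest that 100000 permutations can give. Without the 2 pups farthest in the first gene of the pair, these were 0.75, 0.74 and 0.65.

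Junb was closest to Ier2 (r = 0.68, rho = 0.65) and to Nr4a1 (r = 0.67, rho = 0.63), with permutation p = 1e-05 for r, and without the farthest 2 pups r was 0.66 and 0.57. The AP-1 genes Fos and Fosb had r = 0.60 (permutation p = 0.00021; rho = 0.49, permutation p = 0.00063), 0.56 without the farthest 2 pups. Ier2 had the lowest median r to the other 9 genes, 0.20, with 0.68 for Junb and 0.38 for Nr4a1 as its highest values, and the 2 lowest pairs were Ier2 with Egr2 (0.02, permutation p = 0.895) and with Npas4 (0.05, permutation p = 0.733). Arc, Egr1 and Junb had the highest median r to the others, 0.56, 0.55 and 0.53.

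**Figure D5:**
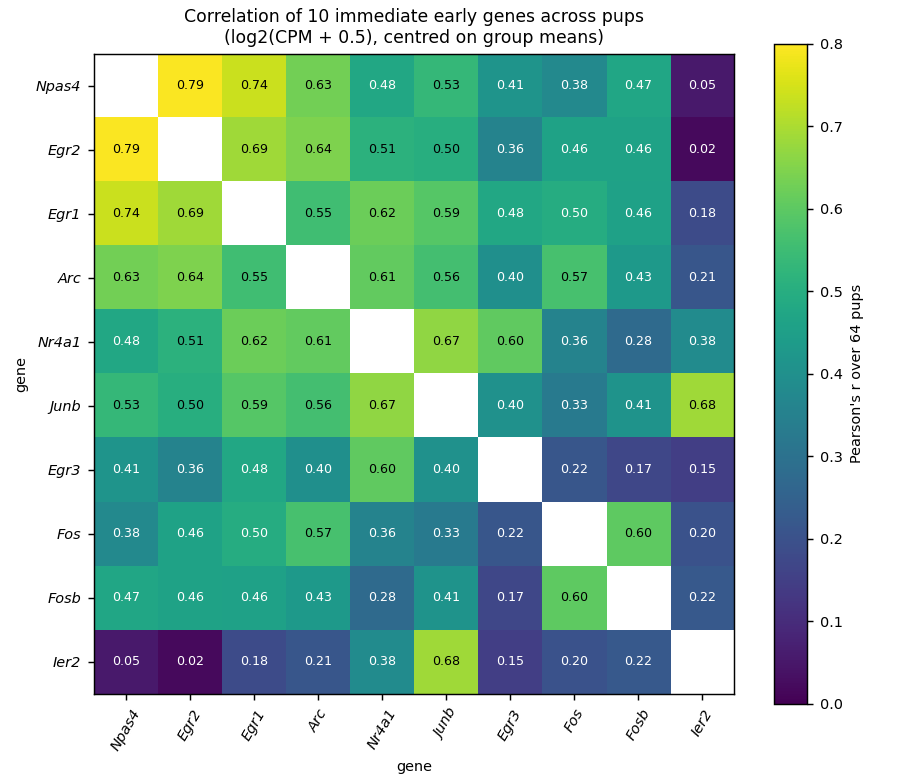
Pearson's r between the 10 genes across 64 pups, of log2(CPM + 0.5) centred on the group means, as a colour scale with the value in each cell. Egr1, Egr2 and Npas4 are joined by values of 0.69 to 0.79, and the 2 lowest values, 0.02 and 0.05, are those of Ier2 with Egr2 and with Npas4.

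The sexes were also taken apart, with fewer females than males, so that their counts of pairs under 0.05 cannot be compared. In 41 males all 45 pairs were positive, with a median r of 0.51 and 38 pairs at a permutation p under 0.05, and in 23 females 38 pairs were positive, with a median of 0.39 and 16 under 0.05. Ier2 and Junb had r = 0.79 in males and 0.29 in females, and Ier2 and Egr2 0.20 and -0.39. The difference between the sexes in these correlations was not tested. In the 24 pups of form A 42 pairs were positive and in the 20 males of form B 45, with medians of 0.48 and 0.51.

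Tissue markers moved with some of these genes. Over 64 centred pups, summed striatal markers had r = 0.82 with Npas4, 0.76 with Egr2, 0.64 with Egr1, 0.44 with Arc and -0.12 with Ier2, and summed hippocampal markers had r = -0.71 with Egr2 and with Npas4. Summed endothelial markers had r = 0.72 with Ier2, 0.38 with Junb and 0.00037 with Egr3. Striatal markers were 102 to 531 CPM in control males and 147 to 1109 in control females. With striatal and neocortical sums regressed out, an alternative added after the data had been seen, all 45 pairs were still positive, with a median r of 0.45. Npas4 and Egr2 then had r = 0.47, while Junb and Ier2 had 0.78. No other marker sum was removed. Thalamic sums had r from -0.67 with Npas4 to 0.095 with Fos. Oligodendrocyte sums had r from 0.16 with Ier2 to 0.69 with Arc, and microglial sums from 0.16 to 0.67 with the same genes. The part of the sums left in was not tested.

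Pup CONSC 9-1x had the highest striatal sum of the 64 (1109 CPM) and the lowest hippocampal sum (138 CPM). Without it and pups CPF3 38-5x and BPA5 81-1y, which each stood apart in at least 2 of the genes, 36 pairs again had a permutation p under 0.05, with a median r of 0.43.

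Genes whose levels followed the 10 most closely were sought among 17357 genes by the median of their 10 correlations across the 64 pups. The 10 highest were Rab36 (0.646), Sh2d5 (0.628), Rap1gap (0.620), Inf2 (0.616), Arhgef10 (0.615), Acd (0.615), Sox8 (0.601), Dbp (0.594), Cpne5 (0.591) and Nbeal2 (0.590), where the median over all genes was 0.0123 and the 99th percentile 0.470. Dbp encodes an output factor of the circadian clock. Of 29 other immediate early and rapidly induced genes measured, 19 had a positive median, and the median over the list was 0.130, from -0.524 to 0.538 for Egr4. Among 27 regulators of activity-dependent transcription 17 were positive (median 0.0816), with Srf, which binds the serum response element, at 0.580. The 17 late effector genes had a median of -0.0762, and 13 clock and 9 glucocorticoid-responsive genes medians of 0.0154 and 0.0400.

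The same lists were read in the comparison of control females with control males. There 30.9% of all genes tested were called. Of 29 other immediate early genes 18 were called by edgeR, 15 higher and 3 lower in females, with a median log2 difference of 0.25. Among them were Klf2, also known from endothelium, at 2.74 (edgeR adjusted p = 1.37e-10), Ier5l at 2.42 (1.24e-08), Jund at 0.84 (2.32e-08) and Jun at 0.55 (6.94e-09). Of 27 regulators 8 were called, all higher in females, among them the serum response factor coactivator gene Mkl1 at 0.48, the CREB coactivator gene Crtc1 at 0.44, and the glutamate receptor subunit gene Grin1 and the histone deacetylase gene Hdac5 at 0.42 each. Of 15 late effectors 3 were called, higher in females (Plk3, Sst and Vgf). Of 13 clock genes 3 were called higher (Nr1d1, Dbp and Per1) and 1 lower (Arntl), and of 9 glucocorticoid-responsive genes Per1 was called higher and Tsc22d3 lower. In either direction, the counts for regulators and clock genes are near the share over all genes. Those for late effectors and glucocorticoid-responsive genes are below it, and that for the other immediate early genes is above it. Of all genes tested, 17.8% were called higher in females. Genes called higher are above that share for the other immediate early genes (15 of 29) and regulators (8 of 27). They are nearer to it for clock genes (3 of 13) and late effectors (3 of 15), and below it for glucocorticoid-responsive genes.

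Against treatment, route, time and the interaction of sex and treatment, 0 genes of these 5 lists were called by edgeR, where 0% to 0.195% of all genes tested were called. Form B against form A in female controls called Ier5l (log2 difference 0.55, edgeR adjusted p = 0.0359) and Grin1 (0.26, edgeR adjusted p = 0.0482), where 1.43% of all genes tested were called.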

How the data were processed

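RNA was sequenced from poly(A)-selected stranded libraries. The submitters' processing notes list STAR, featureCounts, kallisto and the build Rnor_6.0, and the authors deposited raw read counts for every gene of each library. Software versions and the handling of multiply mapping reads are not given in the sources used here. Groups came from the sample labels, and the counts of pups with 2 libraries were added up, except in fits that involve the form of library name or keep libraries apart. Replicates are separate pups, some of them littermates.

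The 10 genes and the gene lists were chosen with earlier results of these data known. Genes were tested in edgeR 4.0.16 (R 4.3.3) after TMM normalization and filterByExpr, by the quasi-likelihood F test with Benjamini-Hochberg adjustment over all genes tested (threshold 0.05). Fits covered high-dose males, low-dose males, females, routes, sex in controls, sex by treatment, time with group terms, and form in female controls. Each SE was obtained from the log2 difference and its F value. CPM was computed from deposited counts. Correlations used log2(CPM + 0.5) centred on group means, with 100000 permutations within groups (10000 in alternatives), two-sided, in scipy 1.17.1 and numpy 2.4.6 under Python 3.11.15 (pandas 2.3.3, matplotlib 3.10.9). No p was adjusted over the 10 genes or 45 pairs alone, although the plan named this. All 10 genes could be named, and those not named in a comparison are plotted or counted. The genes most like them are the 10 with the highest median correlation; of each list, at most the 4 genes with the smallest p among those called (or the highest correlation) are named.

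Alternatives were DESeq2 1.42.0, limma 3.58.1, other filters, size factors, covariates, pups within 10.30 to 13.20 (53 of 64), libraries kept apart, 1 pup per litter, controls of 1 route, litter as a block and each pup left out. The scripts were tested on simulated data.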

Additional observations from a re-analysis of the deposited data

Results flagged for a closer look

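Within the 13 groups of 4 to 7 pups, 9 of the 130 sets of 1 gene in 1 group held a pup far from the others, where chance alone gives about 1 in 20. Each was the highest of its group. Pup CONSC 9-1x stood apart in 3 genes, with Npas4 at 9.34 CPM (next pup 3.63), Egr2 at 4.64 CPM (next 1.82) and Junb at 12.7 CPM (next 8.69). Female CPF3 38-5x had Npas4 at 7.82 CPM (next 2.84) and Egr2 at 3.67 CPM (next 1.51), and its striatal markers summed to 723 CPM, the 4th highest of 64 pups. Male BPA5 81-1y had Fos at 5.49 CPM (next 2.73) and Npas4 at 4.13 CPM (next 2.98). Ier2 stood apart in female Aro5 120-3x at 12.6 CPM (next 8.16) and in male CPF3 36-3y at 10.6 CPM (next 7.25).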

How the results depend on the processing

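The counts of called genes among the 10 stayed at 0 in the treatment, route, interaction, time and form comparisons under each alternative run, DESeq2 included. They also stayed at 0 with each pup left out in the treatment and route comparisons and with each group left out for time, while no pup was left out in the interaction and form comparisons. In the comparison of control females with control males, Junb, Egr3, Ier2 and Nr4a1 were called in all 7 alternatives and with each of the 19 pups left out. There 6 genes were called, 4 with the litter as a replicate block (Junb 1.75, adjusted p = 1e-07, limma-voom) or time as a covariate, 5 without a filter or within form A, 7 with DESeq2, 8 in 1 fit of control and high-dose pups (added after the data had been seen), and 4 to 8 with a pup left out. Egr1 was lost with the block, time, form A, or without CONF N3-4y or N8-1x (adjusted p = 0.0535 and 0.0565). Fosb was lost without a filter (0.0548), with time (0.126) or the block, and when any 1 of 11 pups was left out (0.0524 to 0.0926), CONSC 11-3x, 9-1x, 10-2y, 13-1y, 6-5y, 8-4y and 6-7x and CONF N3-4y, N4-7y, N5-2y and N8-1x. Arc was called by DESeq2 (adjusted p = 0.0423), in the joint fit, and without CONSC 13-8x, CONF N5-2y or N1-8x, and Fos in the joint fit or without CONSC 13-8x. The block could not be fitted in the treatment comparisons within 1 sex, where at most 1 litter gave 2 pups. The count of genes correlated with time, 1, was 0 in males only, without centring, in pups of form A, in males of form B, and without the 3 pups that stood apart, a choice added after the data had been seen. The count of correlated pairs, 36, was 16 in females only and 24 to 40 otherwise. Genes of all kinds called ranged under the alternatives over 0 to 818 in Aro5 males (32 as reported), 0 to 63 in BPA5 (31), 0 to 82 in CPF3 (26), 0 to 258 in Aro0.5 (20), 0 to 37 in BPA0.5 (7), 0 to 3 in treated females (0), 1847 to 8868 for sex (4865), 19 to 609, 0 to 15 and 1 to 16 for sex by Aro5, BPA5 and CPF3 (17, 7 and 8), 0 to 117 for time (0) and 108 to 858 for form (237). With 1 pup left out they ranged over 25 to 176 in Aro5 males (176 without Aro5 108-1y, 67 without CONF N2-2y), 25 to 39 in BPA5, 17 to 41 in CPF3 (17 without CPF3 35-5y, 41 without CONSC 10-2y), 0 to 322 in Aro0.5 (322 without CONSC 8-4y, 0 to 2 without Aro0.5 94-3y, 106-3y or 98-8y, 12 to 13 without CONF N2-2y, CONSC 11-4y or 13-1y) and 0 to 31 in BPA0.5 (0 and 1 without BPA0.5 73-4y and 72-4y, 15 to 31 without Aro0.5 105-5y, CONF N3-4y, BPA0.5 69-4y or 75-1y). Fosb and Egr2, with as few as 3 and 7 counts in a pup, are the genes that depth limits most.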
